A study of Rattus norvegicus with 56 samples.

Results

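The miR-101 pair consists of miR-101a-3p and miR-101b-3p, the 2 mature microRNAs of the miR-101 family in the rat. They are 2 of the 682 microRNAs listed in the deposited tables, and both were listed in myocardium (661 microRNAs), amniotic fluid (523) and maternal serum (518). The members were taken by name. They were chosen by their myocardium counts, because every non-VSD sample lay below every NC sample for both, so the myocardium values below describe the pair, and no test of the members was made on them. The tests of the members come from amniotic fluid and maternal serum, which the choice did not use.

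Samples came from Sprague-Dawley rats on embryonic day 19 (D19). Dams of the NC group received distilled water by gavage, and dams of the other groups received repeated doses of dimethadione (DMO), the metabolite of the anticonvulsant trimethadione. The VSD group held DMO-exposed fetuses with a ventricular septal defect and normally connected great vessels, and the non-VSD group held DMO-exposed fetuses whose septum was intact. Each group had 7 samples: NC, non-VSD and VSD for wax-embedded myocardium and for amniotic fluid supernatant, NC and VSD for maternal serum, 56 in all. Fetuses in either DMO group had the same exposure, so these groups differ by septal outcome, and each was compared with the same NC samples. The dam of each fetus is not named, and fetuses of 1 group may share a dam, so p-values measure the spread between these samples.

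MicroRNAs pair with target messenger RNAs through their seed, bases 2 to 8 from the 5′ end, and lower the output of those targets. miR-101 is widely expressed and is best known for targeting Ezh2, the enzyme of Polycomb complex 2 that methylates histone H3 at lysine 27. In the heart it has also been linked with Fos in cardiac fibroblasts. In the rat the family comes from 2 hairpin genes on different chromosomes. The mature sequences are shown here because the members share every base but 1, so that their counts can be told apart by that base alone. In RefSeq on build GRCr8, miR-101a-3p lies at chr5:121081691-121081711 on the minus strand, inside the long noncoding RNA gene LOC120102934 on the same strand. miR-101b-3p lies at chr1:236273982-236274002 on the plus strand, inside the protein-coding gene Rcl1 on the same strand. The seed is in capitals.
miR-101a-3p: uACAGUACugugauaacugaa
miR-101b-3p: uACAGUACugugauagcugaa

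Counted from the 5′ end, the members differ by A16G (miR-101a-3p has the first base), and 20 of their 21 bases are identical. The seed is the same in both, and no other of the 693 mature names with a RefSeq sequence has it. One further microRNA, miR-144-3p of red blood cells, shares bases 2 to 7, shown in capitals below, and differs at base 8. It lies at chr10:63459446-63459465 on the plus strand. No other mature microRNA lay within 1 base of either member. How the authors assigned reads that carry an error at base 16 is not given in the sources used here, so the split between the members is uncertain where 1 of them is much more abundant.
miR-144-3p: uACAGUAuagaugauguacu

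The level of the pair was highest in the fetal heart. In NC myocardium, miR-101b-3p stood at 3596 ± 518 counts in each 1000000 of the library total (CPM, SD, n = 7) and ranked 39th of 661 microRNAs by mean level. miR-101a-3p stood at 2545 ± 643 CPM and ranked 48th. In NC maternal serum, miR-101b-3p stood at 289 ± 99.5 CPM (rank 104 of 518) and miR-101a-3p at 169 ± 79.2 CPM (rank 128). In NC amniotic fluid, miR-101a-3p stood at 111 ± 47.3 CPM (rank 224 of 523) and miR-101b-3p at 91.1 ± 65.8 CPM (rank 238).

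Both members had higher levels in NC myocardium than in NC maternal serum, which were made with the same library kit and sequencer but with different extraction kits. The difference was 4.02 on the log2(CPM + 1) scale for miR-101a-3p, a 16.3-fold higher level, and 3.70 for miR-101b-3p, a 13.0-fold higher level. All 7 myocardium samples lay above all 7 serum samples for each member. The NC myocardium values were part of the choice of the members, so this is a description. Amniotic fluid was made with another library kit, and its levels are set beside the others without a test.

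**Figure D1:**
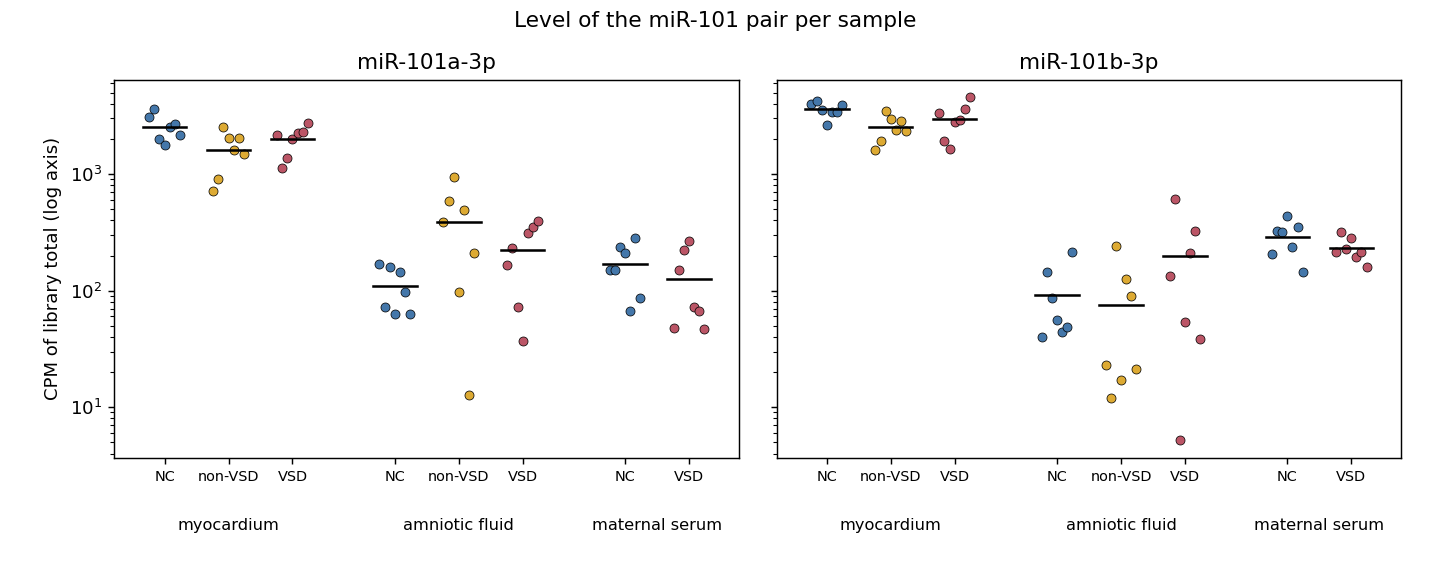
Level of miR-101a-3p (left) and miR-101b-3p (right) in CPM of the library total, on a log axis, for each of the 56 samples by tissue and group; horizontal bars are group means. Myocardium samples lie between 713 and 4562 CPM, and all but 1 of the fluid samples lie below that range.

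Ordered by mean level, miR-101a-3p ran from NC myocardium through VSD (1994 ± 562 CPM) and non-VSD myocardium (1616 ± 651) to non-VSD amniotic fluid (391 ± 322), VSD amniotic fluid (224 ± 138), NC serum, VSD serum (125 ± 89.2) and NC amniotic fluid. The order for miR-101b-3p was NC, VSD (2966 ± 997 CPM) and non-VSD myocardium (2514 ± 645), NC and VSD serum (231 ± 54.0), VSD amniotic fluid (197 ± 215), NC amniotic fluid and non-VSD amniotic fluid (75.6 ± 84.8). Neighbouring groups of the same tissue overlapped in range on this scale for both members. Thus the non-VSD group of amniotic fluid held the highest mean of miR-101a-3p among the 5 fluid groups and the lowest mean of miR-101b-3p.

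The other arms of the hairpins were nearly absent. miR-101a-5p had 15 counts over all 21 myocardium samples, with a count in 9 of them, against 292149 counts of miR-101a-3p. miR-101b-5p had 16 counts in 8 samples, against 430494 of miR-101b-3p. In amniotic fluid miR-101a-5p had 5 counts in 1 sample. No comparison could be made on either arm.

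Total counts ran from 1694811 to 9371130 in myocardium, from 78188 to 331787 in amniotic fluid and from 147609 to 581350 in maternal serum, where VSD samples were shallower (147609 to 370867) than NC samples (271578 to 581350). Every sample had at least 1 count of each member. Counts of miR-101a-3p were between 2335 and 33647 in myocardium, between 14 and 141 in serum and between 1 and 196 in amniotic fluid. The amniotic fluid values therefore rest on far fewer reads than the myocardium values. All 5 heart muscle microRNAs checked (miR-1-3p, miR-133a-3p, miR-208a-3p, miR-208b-3p and miR-499-5p) were detected in every myocardium group, at a summed 4027 to 98683 CPM in NC, 23095 to 45229 in non-VSD and 5384 to 41467 in VSD samples. The 6 epithelial microRNAs checked summed to 207 to 12008 CPM in NC, 282 to 5655 in non-VSD and 1687 to 12959 in VSD myocardium. In VSD against NC, 4 of 5 heart muscle fold changes were negative (median −0.44) and none of the 6 epithelial ones (median 1.20). In non-VSD against NC, 2 of 5 (median 0.33) and 6 of 6 (median −0.25) were negative. The part of tissue composition in the level of the pair was not tested.

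In myocardium of the non-VSD group, both members lay below the NC group, which is the contrast that chose them. On the TMM scale, in which libraries are set so that most microRNAs do not change, miR-101a-3p was between 731 and 2013 CPM in the non-VSD samples (median 1419) and between 2339 and 3221 CPM in the NC samples (median 2766). miR-101b-3p was between 1662 and 2759 CPM (median 2267) against 3012 to 5376 CPM (median 3937). The closest pair of samples across the groups was thus non-VSD replicate 3 at 2013 CPM and NC replicate 4 at 2339 CPM for miR-101a-3p. For miR-101b-3p it was non-VSD replicate 3 at 2759 CPM and NC replicate 6 at 3012 CPM. The fitted log2 fold change was −0.90 (SE 0.22) for miR-101a-3p and −0.78 (SE 0.17) for miR-101b-3p.

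Of the 456 microRNAs fitted, 3 lay wholly lower in the non-VSD group, with no overlap (0.658%): both members and miR-542-3p, at −0.58 (SE 0.14). The members were not the microRNAs with the lowest fold changes. miR-101a-3p was 24th and miR-101b-3p 34th from the lowest of the 456.

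The separation depended on the scaling. On the scale of library totals, none of the 456 microRNAs lay wholly below the NC group (0%). There, 4 of 7 non-VSD samples lay below the lowest NC sample for each member. Non-VSD replicate 3 then reached 2551 CPM of miR-101a-3p, against 1768 CPM in NC replicate 4, and 3496 CPM of miR-101b-3p, against 2655 CPM. The library totals behind the authors' normalised read counts gave the same numbers, 4 of 7 samples for each member and none of the 456 microRNAs (0%). TMM factors were between 0.661 and 1.30 in NC libraries and between 0.948 and 1.27 in non-VSD libraries. With library size alone the log2 fold change was −0.66 (SE 0.27) for miR-101a-3p and −0.52 (SE 0.17) for miR-101b-3p, while the median of all microRNAs moved from −0.07 to 0.13. The members were then 30th and 50th from the lowest, against 24th and 34th with TMM.

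**Figure D2:**
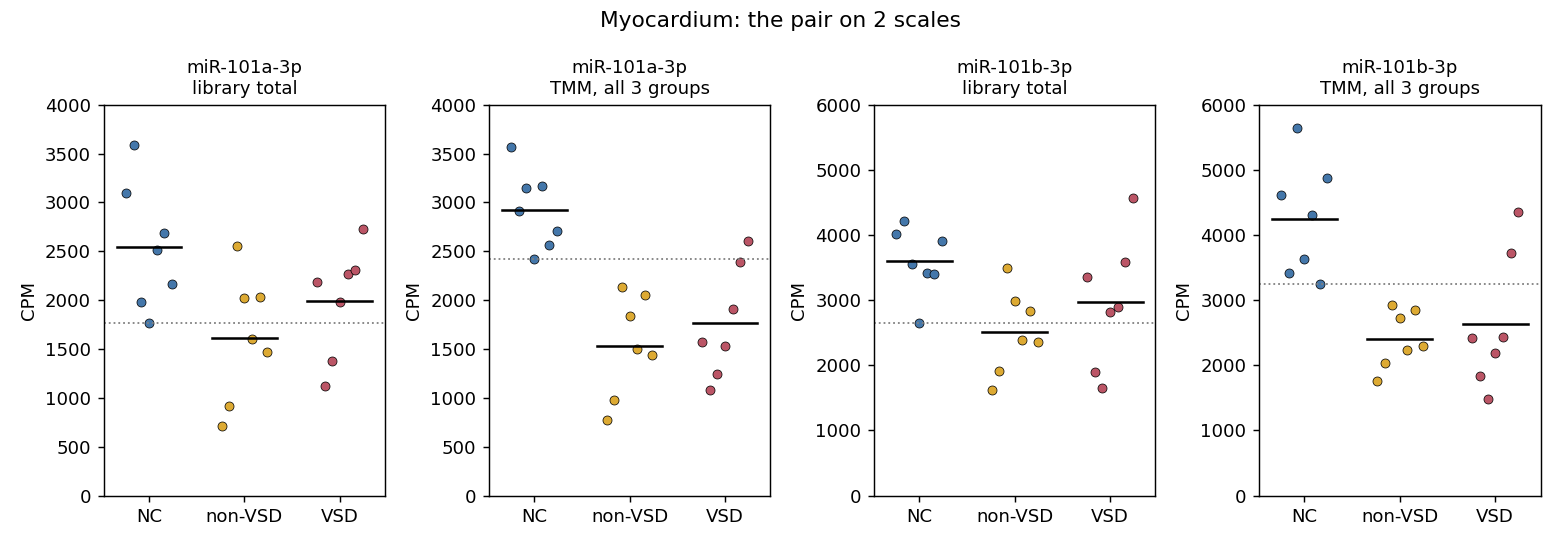
Myocardium values of both members in CPM, by group, scaled by library total and by TMM over all 3 groups; points are samples, solid bars are means and the dotted line marks the lowest NC sample. On the TMM scale all 7 non-VSD samples are below the line for both members, and on library totals 4 of 7 are.

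In VSD myocardium the pair also lay below the NC group, with some overlap. On the TMM scale miR-101a-3p was between 1060 and 2558 CPM (median 1547) against 2369 to 3611 CPM in NC (median 2943). miR-101b-3p was between 1458 and 4274 CPM (median 2377) against 3160 to 5540 CPM (median 4229). Below the lowest NC sample were 6 of 7 VSD samples for miR-101a-3p and 5 of 7 for miR-101b-3p, and VSD replicate 7 was highest for both. The log2 fold changes were −0.74 (SE 0.21) and −0.69 (SE 0.24). Of 469 microRNAs fitted, 2 lay wholly below the NC group (0.426%), and neither was a member. On the library totals and on the authors' totals, 2 of 7 VSD samples were below the lowest NC sample for each member, and 1 of 469 microRNAs lay wholly below (0.213%). With library size alone the values were −0.35 (SE 0.22) and −0.28 (SE 0.21), beside a median of all microRNAs of 0.32 in place of −0.05. This comparison shares the NC samples with the one above.

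The VSD and non-VSD groups lay close to each other. VSD samples differed from non-VSD samples by 0.20 (SE 0.23) on the log2 scale for miR-101a-3p and by 0.13 (SE 0.21) for miR-101b-3p, in a fit of all 3 groups. Both differences are smaller than their standard errors. Without VSD replicate 7 the difference of miR-101b-3p was −0.01.

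Within myocardium the members moved together. Over the 21 samples their log2 CPM had a Pearson r of 0.91 (Spearman 0.95), with 0.56 within the NC group, 0.98 within non-VSD and 0.94 within VSD (7 samples each). The members were chosen by a group difference that both show, so the value over all 21 samples is not free of that choice. These samples share a library for both members, and depth and scaling act on both at once. The ratio within a sample is free of scaling. The log2 ratio of miR-101a-3p to miR-101b-3p (1 added to each count) was −0.52 ± 0.24 in NC, −0.71 ± 0.29 in non-VSD and −0.55 ± 0.19 in VSD myocardium (SD, n = 7). miR-101a-3p was the less abundant member in all 21 samples. Its share of the pair was 41.1% ± 4.07 in NC, 38.0% ± 4.64 in non-VSD and 40.5% ± 3.21 in VSD samples.

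All 4 red blood cell microRNAs checked (miR-144-3p, miR-144-5p, miR-451-5p and miR-486) had negative fold changes in both DMO groups of myocardium, with a median of −1.61 in non-VSD and −2.37 in VSD samples. Their summed level ran from 2651 to 91137 CPM in NC (median 33790), from 3255 to 33986 CPM in non-VSD (median 7004) and from 3435 to 25159 CPM in VSD samples (median 7523). It correlated with miR-101a-3p at r = 0.51 and with miR-101b-3p at r = 0.57 over the 21 samples, and at 0.23 and 0.32 after group means were subtracted. NC replicate 2 had the lowest summed level of all, 2651 CPM. On the same scale it had 2915 CPM of miR-101a-3p, the median of its group, and 3422 CPM of miR-101b-3p, below the group median of 4307 CPM. That sample also had the lowest heart muscle sum (4027 CPM) and the highest epithelial sum (12008 CPM) of the NC group. The 3 white blood cell microRNAs (miR-142-3p, miR-142-5p and miR-223-3p) ran from 196 to 3599 CPM in NC, 197 to 1897 CPM in non-VSD and 189 to 979 CPM in VSD samples. In each DMO group 2 of 3 fold changes were negative, with a median of −0.94 in non-VSD and −1.81 in VSD samples. Their sum correlated with miR-101a-3p at r = 0.55 and with miR-101b-3p at 0.62, and at 0.36 and 0.44 after group means were subtracted. The part of blood cells in the level of the pair was not tested. In bulk tissue, fewer cells of a type and less RNA per cell cannot be told apart.

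miR-144-3p, the red blood cell microRNA with bases 2 to 7 of miR-101, had a log2 fold change of −1.25 (SE 0.70) in non-VSD and −2.62 (SE 0.58) in VSD myocardium. By edgeR's quasi-likelihood test neither passed (adjusted p = 0.407 and 0.0569). Its mean level was 845 ± 662 CPM in NC, 341 ± 301 in non-VSD and 138 ± 77.2 in VSD samples, below that of either miR-101 member in each group.

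By base composition the pair is rich in A and U, with 33.3% G and C in miR-101a-3p and 38.1% in miR-101b-3p. The 81 fitted microRNAs with a G and C content no higher than that of miR-101b-3p had a median log2 fold change of −0.03 in non-VSD myocardium, with 54.3% below 0. Among all 456 the median was −0.07, with 56.6% below 0. In VSD myocardium the 82 such microRNAs had a median of −0.04, beside −0.05 for all 469, of which 53.3% were below 0. A sequence was at hand for 91.9% of the microRNAs fitted in each comparison.

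The microRNAs whose myocardium pattern was most like the pair were named by Pearson's r with the mean log2 CPM of both members over 21 samples, among 343 microRNAs with a mean of at least 10 CPM. They were miR-542-3p (r = 0.80), miR-3559-5p (0.77), miR-6329 (0.76), miR-450a-5p (0.74) and miR-144-3p (0.73). miR-542-3p and miR-450a-5p belong to 1 cluster on the X chromosome. After group means were subtracted, r was 0.61 for miR-542-3p, 0.62 for miR-3559-5p, 0.53 for miR-6329, 0.61 for miR-450a-5p and 0.64 for miR-144-3p. The lowest values were those of miR-125a-5p (r = −0.88), a relative of the lin-4 microRNA, and miR-340-3p (−0.72). miR-125a-5p kept r = −0.83 after group means were subtracted. That value pools all groups, and the opposite course was not seen among the NC samples, where miR-125a-5p varied little. Its level was 1552 ± 91.4 CPM in NC, 2128 ± 611 in non-VSD and 2252 ± 494 in VSD samples.

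**Figure D3:**
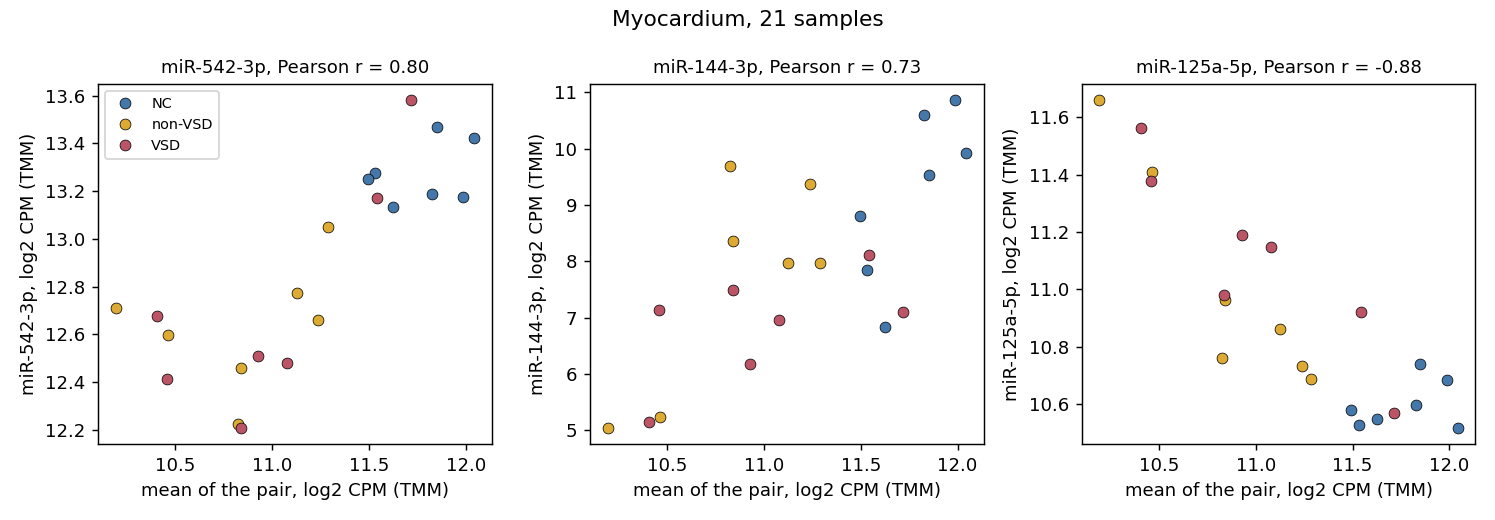
Myocardium levels (log2 CPM after TMM) of miR-542-3p, miR-144-3p and miR-125a-5p against the mean of the miR-101 pair in 21 samples, coloured by group. miR-542-3p (r = 0.80) and miR-144-3p (r = 0.73) increase with the pair and miR-125a-5p (r = −0.88) decreases.

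Of a list of 5 other microRNAs described as targeting Ezh2 (miR-26a-5p, miR-26b-5p, miR-138-5p, miR-214-3p and miR-137-3p), 4 were fitted in non-VSD myocardium, and none passed an adjusted p of 0.05 by edgeR, which 1 of all 456 did (0.219%). The fold change was negative for 2 of 4, and their median was 0.08 beside −0.07 for all microRNAs. miR-26a-5p, the most abundant, was at −0.32 (SE 0.15, adjusted p = 0.308). In VSD myocardium 2 of 5 were negative, with a median of 0.03 beside −0.05, and none passed, against 2 of all 469 (0.426%). miR-26a-5p was at −0.54 (SE 0.16, adjusted p = 0.0803) and miR-137-3p, a neuronal microRNA at 3.78 ± 4.74 CPM in NC, at 1.88 (SE 0.66, adjusted p = 0.131). The study's threshold for a DE-microRNA is an unadjusted p under 0.05 with at least a 2-fold change. In VSD myocardium miR-137-3p alone of the list met it (edgeR, unadjusted p = 0.0123), as did 12 of all 469 with higher levels. With library size alone miR-26a-5p was the only member of the list with a negative value, at −0.07 in non-VSD and −0.10 in VSD samples, so miR-214-3p and miR-26b-5p changed sign with the scaling.

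Of the microRNAs tied to cardiac fibrosis (miR-21-5p, miR-29a-3p, miR-29b-3p and miR-29c-3p), 1 of 4 had a negative fold change in each DMO group and none passed the adjusted threshold. The negative one, miR-21-5p, was at −0.08 and −0.26, and at 0.18 and 0.16 with library size alone. The median of the list was 0.34 in non-VSD and 0.49 in VSD samples. miR-29b-3p, which represses collagen genes, was at 0.995 in non-VSD (SE 0.28, adjusted p = 0.0911) and 1.15 in VSD samples (SE 0.30, adjusted p = 0.0645), at a low level of 3.83 ± 1.29 CPM in NC. It alone of the list met the DE-microRNA threshold in VSD myocardium (edgeR, unadjusted p = 0.00151), as did 12 of all 469 with higher levels. In amniotic fluid 3 of 5 of the Ezh2 list and 3 or 4 of 4 of the fibrosis list were tested, and in serum 4 of 5 and 4 of 4. None passed the adjusted threshold, beside 12 of all 242 (4.96%) in non-VSD amniotic fluid against NC and none of all microRNAs (0%) in the other fluid comparisons, so these counts say nothing particular about the lists.

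Summed over the group, the counts of the members parted in non-VSD amniotic fluid, with more of miR-101a-3p than in NC and about as many of miR-101b-3p. miR-101a-3p had 17, 6, 24, 9, 36, 22 and 5 counts in NC replicates 1 to 7, and 68, 196, 118, 17, 78, 1 and 20 counts in the non-VSD replicates. miR-101b-3p had 4, 12, 13, 8, 11, 11 and 17 counts in NC and 4, 4, 30, 3, 20, 7 and 2 counts in non-VSD replicates. Over the group this is 498 against 119 counts for miR-101a-3p and 70 against 76 for miR-101b-3p, at similar summed depth (1139400 against 1024471 counts). The median count was 68 against 17 for miR-101a-3p, and lower than in NC for miR-101b-3p, at 4 against 11. Non-VSD replicate 2 alone held 196 of the 498 counts, and replicates 3 and 5 held most of the 70.

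The fitted log2 fold change of miR-101a-3p was 1.86 (SE 0.68). It met the study's threshold for a DE-microRNA, an unadjusted p under 0.05 (here 0.0132) with at least a 2-fold change, as did 30 of 242 microRNAs tested (12.4%), 21 of them higher (8.68%). It did not pass after Benjamini-Hochberg adjustment (edgeR, adjusted p = 0.110), which 12 of 242 did (4.96%), beside 47 with an unadjusted p under 0.05 (19.4%). It ranked 9th from the highest. Other tools went either way: in DESeq2 the log2 fold change was 1.90 with an adjusted p of 0.0302, and in limma on log2(CPM + 1) it was 1.18 with an unadjusted p of 0.183 (adjusted p = 0.493), which does not meet the DE-microRNA threshold. By level, 5 of 7 non-VSD samples were above the highest NC sample, and non-VSD replicate 6, with 1 count at the lowest depth of the group (78188), was below all NC samples. Its 12.8 CPM is under the 38.4 CPM that 3 counts stand for there. Without that sample the value was 2.0 (SE 0.59, edgeR adjusted p = 0.0404). Without non-VSD replicate 3, the highest sample, it was 1.5 with an unadjusted edgeR p of 0.0525 (adjusted p = 0.312), and the DE-microRNA threshold was no longer met.

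miR-101b-3p did not pass the filter on low counts (filterByExpr) in this comparison and was not tested. With no filter its log2 fold change was −0.22 (SE 1.08, edgeR adjusted p = 0.949), and in a fit of all 3 groups −0.25 (SE 0.87, adjusted p = 0.921). With the counts of both members summed, the pair was at 1.27 (SE 0.55, adjusted p = 0.200).

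The ratio within a sample needs no scaling. The log2 ratio of miR-101a-3p to miR-101b-3p was 0.42 ± 1.27 in NC and 2.27 ± 2.25 in non-VSD amniotic fluid (SD, n = 7), a difference of 1.86. In 6 of 7 non-VSD samples it was above the highest NC sample (NC replicate 1 at 1.85, the next non-VSD sample at 1.91), and in replicate 6 it was −2.0, below all NC samples. The exact two-sided permutation test gave p = 0.0787 (adjusted p = 0.315 over 4 comparisons), so the difference did not pass. That call depended on replicate 6, and without it the difference was 2.57, with exact p = 0.00117 and adjusted p = 0.00466. In replicate 6, 1 of 8 counts of the pair was miR-101a-3p (12.5%, Wilson 95% interval 2.24 to 47.1%), against 196 of 200 in replicate 2 (98%, interval 95 to 99.2%). Such intervals cover counting error only.

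**Figure D4:**
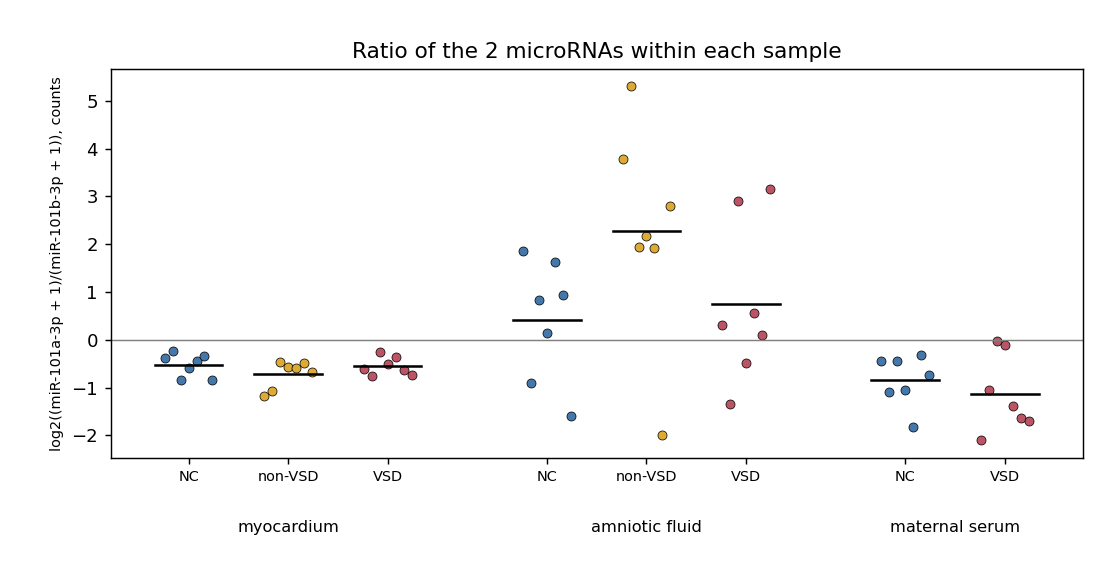
Log2 ratio of miR-101a-3p to miR-101b-3p counts (1 added to each) in every sample, by tissue and group; bars are means. The ratio lies within 1 log2 unit of its group mean in every myocardium sample, while in non-VSD amniotic fluid 6 of 7 samples lie above all NC samples and 1 lies at −2.0.

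In VSD amniotic fluid both members had positive fold changes that did not pass. miR-101a-3p had 31, 19, 14, 9, 36, 43 and 61 counts in replicates 1 to 7 and a log2 fold change of 1.07 against NC (SE 0.57, edgeR adjusted p = 0.424). miR-101b-3p had 25, 50, 1, 13, 24, 40 and 6 counts and was at 1.18 (SE 0.77, edgeR adjusted p = 0.50). None of 245 microRNAs passed the adjusted threshold (0%), 33 had an unadjusted p under 0.05 (13.5%) and 17 met the DE-microRNA threshold (6.94%). DESeq2 and limma called none at an adjusted p under 0.05 either. Neither member met the DE-microRNA threshold in edgeR (unadjusted p = 0.0760 and 0.144). In DESeq2 miR-101a-3p met it, at 1.16 with an unadjusted p of 0.0436 (adjusted p = 0.279). In limma it did not, at 0.83 with an unadjusted p of 0.211. With both members summed, the pair was at 1.12 and met it (edgeR, unadjusted p = 0.0402, adjusted p = 0.327). Without VSD replicate 2, which held 50 counts, miR-101b-3p was at 0.59. The log2 ratio was 0.74 ± 1.68, a difference of 0.32 from NC (exact permutation p = 0.689, adjusted p = 0.689).

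VSD and non-VSD amniotic fluid differed in opposite directions for the 2 members, with neither past the threshold. miR-101a-3p was at −0.73 in VSD against non-VSD (SE 0.66, edgeR adjusted p = 0.835) and miR-101b-3p at 1.42 (SE 0.87, edgeR adjusted p = 0.711). None of 273 microRNAs passed (0%), with 29 at an unadjusted p under 0.05 (10.6%), 9 at the DE-microRNA threshold (3.3%) and 6 called by DESeq2. The log2 ratio differed by −1.53 (exact permutation p = 0.175, adjusted p = 0.351). Without non-VSD replicate 6 it differed by −2.25 (exact permutation p = 0.0245, adjusted p = 0.0490).

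Blood cell microRNAs varied with miR-101a-3p across the amniotic fluid samples. The summed level of the 4 red blood cell microRNAs was between 15088 and 34906 CPM in NC (median 22339), 25498 and 86339 CPM in non-VSD (median 63811) and 18171 and 143900 CPM in VSD samples (median 40522). Over 21 samples it correlated with miR-101a-3p at r = 0.74 (Spearman 0.78), and at 0.70 after group means were subtracted. With miR-101b-3p the values were 0.15 (Spearman 0.14) and 0.25. In non-VSD replicates 4 and 6, the samples lowest in miR-101a-3p, the red blood cell level was also lowest of the group, 25498 and 28127 CPM. Samples of the NC group were mixed. NC replicate 1 had 27111 CPM of the red blood cell microRNAs at 161 CPM of miR-101a-3p, the highest of its group. NC replicates 4 and 7 were low in both, with 19886 and 20745 CPM at 65.2 and 60.0 CPM of miR-101a-3p. NC replicates 2 and 3 went the other way. NC replicate 2 had the highest red blood cell level of its group, 34906 CPM, at 70.3 CPM of miR-101a-3p. NC replicate 3 had the lowest, 15088 CPM, at 158 CPM of miR-101a-3p. The white blood cell microRNAs had r = 0.58 with miR-101a-3p and −0.02 with miR-101b-3p. All samples share their libraries between these values, and the part of blood cells in the amniotic fluid level of miR-101a-3p was not tested.

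Against NC, the fold changes of miR-144-3p had the sign of those of miR-101a-3p in both tissues, negative in myocardium (given above) and positive in amniotic fluid. In VSD against non-VSD myocardium the signs differed, at −1.31 for miR-144-3p and 0.20 for miR-101a-3p. In amniotic fluid the log2 fold change of miR-144-3p against NC was 3.29 (SE 1.04, edgeR adjusted p = 0.0667) in non-VSD and 2.64 (SE 0.99, adjusted p = 0.238) in VSD samples, neither past the adjusted threshold. The microRNAs most like the mean of the pair over 21 amniotic fluid samples, of 271 compared, were miR-486 (r = 0.59), a red blood cell microRNA, miR-652-3p (0.58) and miR-29b-3p (0.57). miR-486 rose in non-VSD amniotic fluid, by 1.20 on the log2 scale (SE 0.30, edgeR adjusted p = 0.0272). In amniotic fluid the members themselves had r = 0.15 with each other (Spearman 0.09). The 0.91 in myocardium is not a like value, because the members were chosen by a group difference that both show there. Within the NC group alone, r was −0.66 in amniotic fluid and 0.56 in myocardium (7 samples each). The amniotic fluid values rest on 1 to 196 counts a sample.

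In maternal serum, both members had negative fold changes in the VSD group that did not pass. miR-101a-3p was between 48.1 and 232 CPM on the TMM scale in VSD (median 78.9) and between 85.7 and 272 CPM in NC samples (median 161). miR-101b-3p was between 179 and 275 CPM (median 216) against 149 to 407 CPM (median 307). The groups overlapped for both. The log2 fold change was −0.56 for miR-101a-3p (SE 0.37, edgeR adjusted p = 0.538) and −0.38 for miR-101b-3p (SE 0.22, edgeR adjusted p = 0.489). None of 219 microRNAs passed the adjusted threshold (0%), while 30 had an unadjusted p under 0.05 (13.7%), 10 met the DE-microRNA threshold (4.57%), all higher in VSD, and 4 were called by DESeq2. The log2 ratio of the members was −0.84 ± 0.53 in NC and −1.14 ± 0.80 in VSD serum (exact permutation p = 0.422, adjusted p = 0.563).

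**Figure D5:**
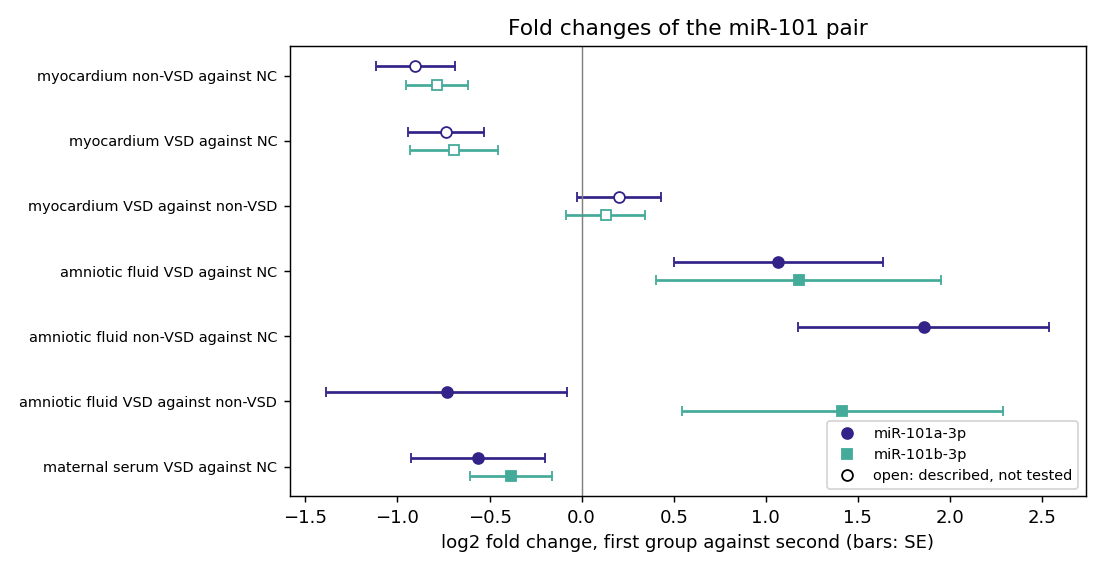
Log2 fold change of each member in every comparison, with its standard error as a bar; open symbols mark the myocardium comparisons, which were described and not tested, and miR-101b-3p is missing where it was not tested. Values are negative in myocardium of both DMO groups (−0.90 to −0.69) and in VSD serum (−0.56 and −0.38), and positive in amniotic fluid against NC (1.07 to 1.86).

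In serum the closest patterns over 14 samples, of 217 microRNAs compared, were those of miR-181a-1-3p (r = 0.88), miR-126a-5p (0.76), which comes from the endothelial miR-126 hairpin, and miR-21-5p (0.75). miR-101a-3p had r = −0.80 with the summed white blood cell microRNAs, which ran from 29357 to 63908 CPM in NC and from 29116 to 81476 CPM in VSD serum, and miR-101b-3p had −0.20. The red blood cell microRNAs had r = 0.27 with miR-101a-3p and −0.38 with miR-101b-3p. These values are descriptions over 14 samples, and the part of blood cells was not tested.

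The direction of miR-101a-3p in the VSD group differed between the fluids, with a mean log2(CPM + 1) difference from NC of 0.80 in amniotic fluid and −0.65 in serum. The gap of 1.45 had a permutation p of 0.0373 (100000 permutations of group labels within each fluid) and an adjusted p of 0.0746 over both members, and did not pass. Shuffling labels in this way assumes no VSD effect in either fluid. A low p could therefore come from an effect in 1 fluid alone, and the test cannot decide whether the effects differ. For miR-101b-3p the gap was 0.72 (permutation p = 0.464, adjusted p = 0.464). The fluids differ in library kit, sequencer and individual (fetus and dam), which cannot be told apart from the fluid.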

How the data were processed

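Small RNA libraries of 56 samples were analysed. Per the labels and the study's methods, the authors converted reads with bcl2fastq 2.19, filtered them with the Fastx-toolkit and deposited read counts per mature microRNA. The aligner, microRNA annotation and build are not given in the sources used here, nor is the use of molecular identifiers. For myocardium and serum the authors also deposited a normalised signal, each count divided by 1 constant per sample. Columns with the authors' comparisons, and 28 columns of CPM for amniotic fluid, were not used.

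The main tests on the counts used edgeR 4.0.16 (R 4.3.3): filterByExpr (minimum count 10, minimum total 15), TMM and the quasi-likelihood test, 2 groups per fit (all 3 for VSD against non-VSD), with Benjamini-Hochberg adjustment over all microRNAs tested. Log2 CPM used a prior count of 2. The log2 ratios of the members were tested with exact permutation over all 3432 groupings (scipy 1.17.1). DESeq2 1.42.0, limma 3.58.1, library size, no filter, a replicate block, summed members and left-out samples were alternatives. The authors' library totals and the comparison between fluids were added after the data were seen. Scripts were tested on simulated counts. Mature sequences came from RefSeq (GRCr8).

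The members and lists were chosen with earlier results of these data known. Named microRNAs are the members, their other arms, miR-144, those nearest by correlation and 2 lists on Ezh2 and fibrosis.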

Additional observations from a re-analysis of the deposited data

How the results depend on the processing

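Among 19 fold changes, levels and ratios and 390 alternatives to them, 380 counted as unchanged, with the same direction and, where tested, side of the adjusted threshold. Of the rest, 5 changed direction and 4 came past the adjusted threshold. The remaining 1 kept its direction and counted as moved: with library size only, miR-101a-3p in VSD myocardium went from −0.74 to −0.35. In the same comparison and setting miR-101b-3p went from −0.69 to −0.28. The authors' library totals gave −0.39 for miR-101a-3p and −0.31 for miR-101b-3p there. These 3 values counted as unchanged, so that count does not show that sizes were kept. The change of sign of miR-101b-3p in VSD against non-VSD myocardium came without VSD replicate 7 (−0.0090; range −0.0090 to 0.23 over left-out samples), and in VSD against non-VSD amniotic fluid it came with both members summed (−0.035). miR-101a-3p in non-VSD amniotic fluid passed in DESeq2 (1.90, adjusted p = 0.0302) and without non-VSD replicate 6 (2.0). Over left-out samples it ranged from 1.5 to 2.09 (edgeR adjusted p between 0.0404 and 0.312). It missed the DE-microRNA threshold in limma (1.18), with the replicate block and without non-VSD replicate 3. The log2 ratio there ranged from 1.35 to 2.57, that of VSD against non-VSD amniotic fluid from −2.25 to −1.03 and that of VSD against NC amniotic fluid from −0.078 to 0.67, below 0 without VSD replicate 3 or 7 or NC replicate 7. miR-101b-3p in non-VSD amniotic fluid had no value under the filter. The causes were not tested.

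Numbers of microRNAs called moved more. With no filter the DE-microRNA threshold called 84 (VSD), 109 (non-VSD) and 88 (VSD against non-VSD) in amniotic fluid and 34 in serum, where 3 passed the adjusted threshold. limma called 10 by the DE-microRNA threshold in VSD amniotic fluid and 7 by adjusted p in non-VSD. DESeq2 called 29 in non-VSD amniotic fluid, 6 in VSD against non-VSD and 4 in serum by adjusted p, and library size only called 1 in VSD against non-VSD. Over left-out samples, adjusted p called 0 to 1 (VSD), 0 to 21 (non-VSD) and 0 to 3 (VSD against non-VSD) in amniotic fluid and 0 to 2 in serum. The DE-microRNA threshold called 7 to 16 in VSD against non-VSD amniotic fluid and 5 to 15 in serum. In non-VSD amniotic fluid, 0 passed without NC replicate 1 or 3 or non-VSD replicate 5, and 21 without non-VSD replicate 6. Of the 5 microRNAs most like the pair in myocardium, 3 were among the nearest 5 by Spearman and 1 after group means were subtracted.

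Groups share replicate numbers. Deviations of same-numbered samples from their group means correlated at −0.62 to 0.47 in myocardium, −0.25 to 0.31 in amniotic fluid and −0.14 to 0.34 in serum. The serum median was 0.15, against −0.06 for samples with other numbers. A sample was closest to its own number in 8 of 42, 5 of 42 and 2 of 14 cases. These values cannot decide whether a number marks a shared dam or batch. Some myocardium samples carry another number in the authors' column labels, and those numbers were not compared. With the replicate number as a block, adjusted p called 2 in non-VSD amniotic fluid and 5 in serum, and the DE-microRNA threshold 19 in non-VSD amniotic fluid. With the block, miR-101a-3p in non-VSD amniotic fluid was at 1.39 with an unadjusted edgeR p of 0.104 (adjusted p = 0.397) and no longer met the DE-microRNA threshold. In the edgeR fits of all samples, no member tested passed the adjusted threshold with or without the block.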
